A study of Homo sapiens with 9 samples.

Results

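Genes of the lysosome were followed in MDA-MB-231 breast cancer cells that carried a hairpin against Coco or a scramble hairpin. The list held 45 genes for lysosomal enzymes, their activator proteins, lysosomal membrane proteins, subunits of the proton pump and the transcription factor TFEB. It was drawn up by gene function, but with earlier results of these data known. Each gene was read from the probe set that carried its symbol alone and had the highest mean log2 intensity over the 9 arrays. In this way 44 of the 45 genes were measured, of 11963 gene symbols on the array. GLB1, the lysosomal beta-galactosidase, had 0 probe sets of its own and was not analysed here.

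MDA-MB-231 is a human triple-negative breast cancer line, and Coco (DAND5) is a secreted antagonist of BMP and Nodal ligands. The lines had been made by stable transduction with lentiviral pLKO vectors, so every group, controls included, carried a hairpin vector. The groups were shco4 (hairpin #4 against Coco), shco2 (hairpin #2 against Coco) and scramble (a control hairpin), each with 3 arrays labelled as biological replicates. Cells were grown in DMEM with 10% fetal bovine serum, and 200 ng of total RNA was labelled with a 3′ in vitro transcription kit for Affymetrix arrays. Each hairpin stands for 1 transduced line, and whether a line was a single clone is not given in the sources used here. The labels do not say whether replicates were separate cultures, so the p-values measure the spread between these samples, which may be technical. DAND5 had 0 named probe sets, so the level of the targeted gene was not analysed here.

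Lysosomes are acidic compartments in which hydrolases break down proteins, glycans and lipids that arrive by endocytosis and autophagy. Most soluble hydrolases get there on mannose 6-phosphate receptors, and a vacuolar proton pump keeps the lumen acidic. TFEB and its relatives TFE3 and MITF bind CACGTG-containing elements in the promoters of many of these genes and are held in the cytoplasm by mTORC1 when nutrients are plentiful. In breast cancer, secreted cathepsins B and D have long been studied for their part in degrading the matrix around tumour cells.

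Array medians lay between 122 and 130 intensity units. Between arrays of 1 group the correlation of log2 intensities was 0.986 to 0.992, and between shco4 and shco2 arrays it was 0.960 to 0.968. The ratio of 3′ to 5′ probe sets of ACTB, a sign of RNA integrity, was 1.12 to 1.14 on shco4 arrays, 1.08 to 1.11 on shco2 arrays and 1.07 to 1.10 on scramble arrays, and its part in the results was not tested. Of 7 genes listed for MDA-MB-231, 6 averaged over 64 units in each group, the exception being SPARC, and their summed intensity was 40129 to 43355 units on shco4 arrays, 32072 to 33454 on shco2 arrays and 49821 to 53036 on scramble arrays. The 6 luminal breast markers summed to 5711 to 6270 units in shco4, 3256 to 3262 in shco2 and 5668 to 7366 in scramble, with ESR1 and PGR under 64 in every group. The 6 fibroblast markers summed to 452 to 599 units in shco4, 255 to 316 in shco2 and 273 to 338 in scramble. Of these only LUM was called in any comparison, with means of 221 units in shco4, 8.48 in shco2 and 20.8 in scramble. In the MDA-MB-231 list AXL averaged 2176 units in shco4, 8294 in shco2 and 9357 in scramble, while CD44 averaged 6714, 3649 and 5224. The sums moved with the lines, in part through single genes, and their part in the results was not tested. In bulk RNA, fewer cells of a type and less RNA per cell cannot be told apart.

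The lysosomal genes were mostly higher in shco4 cells than in shco2 cells, with scramble cells often in between. Cathepsins D, O, K, H and B, tripeptidyl peptidase 1, acid alpha-glucosidase and the main membrane glycoproteins LAMP1 and LAMP2 were all among the genes that rose in shco4 against shco2. Of the 44 members, 25 were called in shco4 against shco2 (limma, Benjamini-Hochberg adjusted p under 0.05 over 22215 probe sets), and 20 of these rose and 5 fell. Over all probe sets 31% were called in that comparison, 14.9% up and 16.1% down. All 44 members reached 64 units on at least 3 arrays, and among the 7839 genes that did so 51.3% were called, 23% up and 28.3% down. The members' 56.8% called was therefore close to the share among genes past the same intensity threshold, which were not otherwise matched in brightness, while the split, 45.5% up and 11.4% down, leaned more to the upper side. The median log2 difference was 0.42 for the members and -0.05 for the bright genes.

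Against scramble the list split in another way with each hairpin. In shco4 cells 21 of 44 members were called, 15 up and 6 down, with a background of 18.8% of all probe sets (9.05% up, 9.75% down) and 32.6% of bright genes (15.5% up, 17.1% down). The members' median log2 difference was 0.18, and that of bright genes 0.01. This count moved with single arrays: it was 11 without scramble replicate 1, 10 without scramble replicate 2, 12 without scramble replicate 3 and 11 without shco4 replicate 2, and 9 of the 21 calls held through every omission. The 15 rises became 7, 7, 8 and 8 in these omissions and 9 without shco4 replicate 1, and the 6 falls became 3 without scramble replicate 2 and 3 without shco4 replicate 2. In shco2 cells 17 of 44 members were called, 6 up and 11 down, with a background of 20.7% of all probe sets (10.7% up, 9.95% down) and 35.8% of bright genes (19.7% up, 16.1% down). Without shco2 replicate 3 it was 13, 6 up and 7 down. Over all 44 members the median was -0.22 for the members and 0.06 for bright genes. Both comparisons use the same 3 scramble arrays, so they are not independent of each other.

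Arrays of the groups did not overlap for 28 members in shco4 against shco2, 22 above and 6 below (40.9% of all probe sets did not overlap there), for 25 in shco4 against scramble, 18 above and 7 below (32.6%), and for 28 in shco2 against scramble, 10 above and 18 below (35.8%). Set in order of group means, 19 of the 44 members (43.2%) ran shco4 above scramble above shco2, an order that 21.9% of bright genes showed. The opposite order, shco2 above scramble above shco4, held for 8 members (18.2%) and 26.5% of bright genes. By this description the list leaned toward high levels in shco4 and low levels in shco2. Because the list was chosen with earlier results of these data known, the lean only describes these genes.

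**Figure D1:**
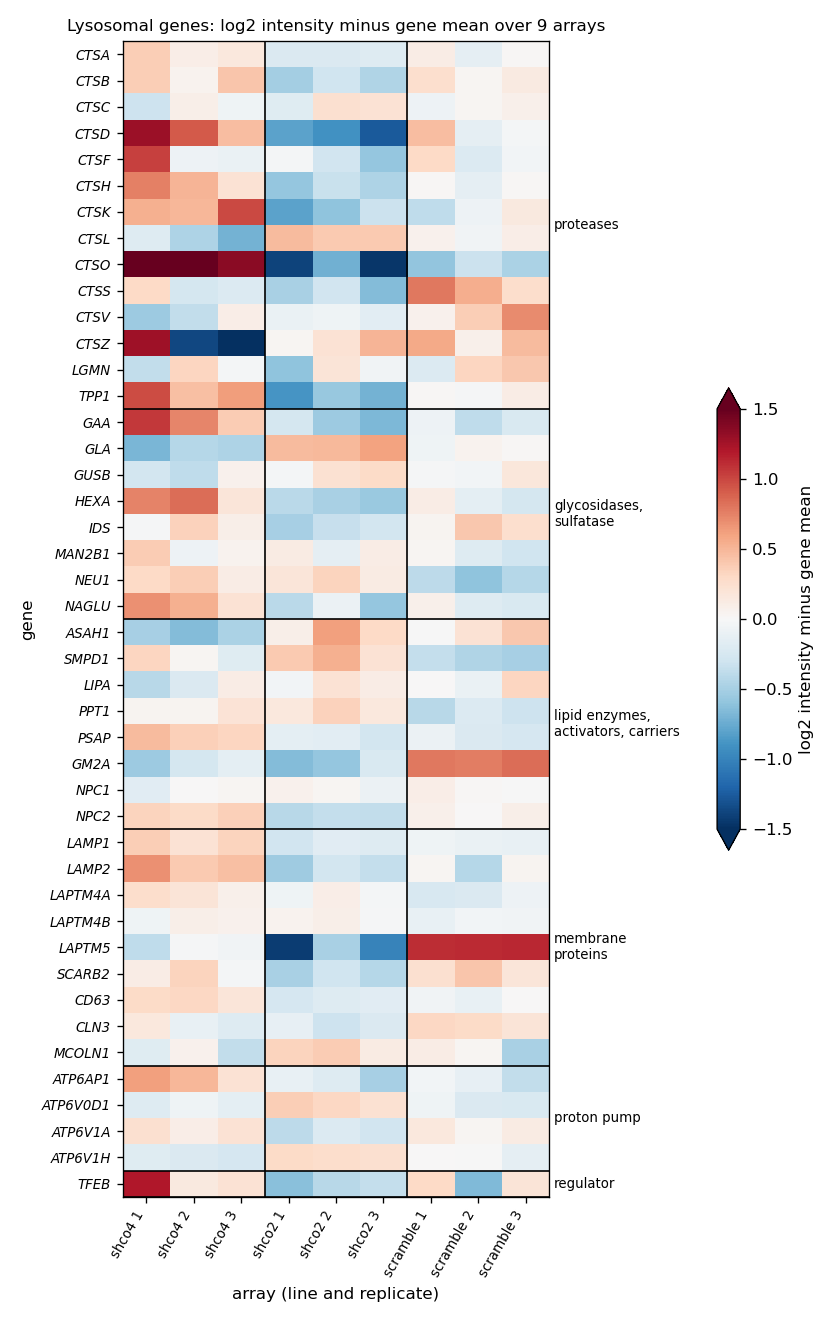
Log2 intensity of the 44 measured lysosomal genes on each of the 9 arrays, minus the gene's mean over the 9 arrays (red above it, blue below, colours ending at 1.5), with genes in rows grouped by role and arrays in columns by line. CTSD, CTSO and TPP1 are high in shco4 and low in shco2 with scramble between, LAPTM5 and GM2A are high in scramble alone, and CTSZ and TFEB are set apart on shco4 replicate 1.

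Because TFEB-type factors bind CACGTG, the promoters of the members were read from RefSeq (GRCh38.p14), in a window from 250 bases before to 50 bases after each start. A window was found for 32 of the 45 genes. The letters CACGTG, which read the same on both strands, occurred in 10 of the 32 (31.2%), namely ATP6V0D1, CD63, CLN3, CTSA, CTSD, CTSF, GAA, LAMP1, MCOLN1 and NEU1, against 8.77% of 27305 genes with a window. A longer element of 10 letters, CACGTG preceded by GT and followed by AC, also the same on both strands, occurred in GAA and MCOLN1 (6.25% of the members, 0.421% of genes). The promoters of 6 chosen members are printed, as the 250 bases before the start, 5′ to 3′, with CACGTG in capitals. CTSD (chr11:1763928-1764177, minus strand), LAMP1 (chr13:113296989-113297238, plus strand), GAA (chr17:80101331-80101580, plus strand) and CTSA (chr20:45891085-45891334, plus strand) hold matches, with 1, 5, 2 and 2 in the printed bases. GLA (chrX:101407926-101408175, minus strand) and LAPTM5 (chr1:30757775-30758024, minus strand) hold 0. GLA is shown because it moved opposite to these 4 between the hairpins, and LAPTM5 because it fell widest against scramble, though it rose in shco4 against shco2. The printed genes do not stand for the list. TPP1, NPC2 and CTSH rose in shco4 against shco2 without a match in their windows, and ATP6V0D1 holds a match but fell there.
CTSD: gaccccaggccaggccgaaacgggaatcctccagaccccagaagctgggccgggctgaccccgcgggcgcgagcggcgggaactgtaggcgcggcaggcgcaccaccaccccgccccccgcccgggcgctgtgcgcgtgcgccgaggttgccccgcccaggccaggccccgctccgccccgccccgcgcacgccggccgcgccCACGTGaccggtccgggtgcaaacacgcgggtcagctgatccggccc
LAMP1: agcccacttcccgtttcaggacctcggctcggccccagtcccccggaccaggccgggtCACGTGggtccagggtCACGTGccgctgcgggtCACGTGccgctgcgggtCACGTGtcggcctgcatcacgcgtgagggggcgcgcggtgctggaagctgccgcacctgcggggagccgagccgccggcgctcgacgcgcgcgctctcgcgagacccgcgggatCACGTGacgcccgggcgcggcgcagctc
GAA: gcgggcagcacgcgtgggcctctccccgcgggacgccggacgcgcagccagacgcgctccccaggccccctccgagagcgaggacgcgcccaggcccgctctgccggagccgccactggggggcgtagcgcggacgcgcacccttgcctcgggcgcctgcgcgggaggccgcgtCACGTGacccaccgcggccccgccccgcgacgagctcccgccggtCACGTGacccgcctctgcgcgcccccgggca
CTSA: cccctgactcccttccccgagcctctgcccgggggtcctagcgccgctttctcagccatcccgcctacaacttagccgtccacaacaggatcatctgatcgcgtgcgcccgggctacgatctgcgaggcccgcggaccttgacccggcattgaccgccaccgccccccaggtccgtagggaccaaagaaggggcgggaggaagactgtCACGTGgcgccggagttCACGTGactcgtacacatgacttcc
GLA: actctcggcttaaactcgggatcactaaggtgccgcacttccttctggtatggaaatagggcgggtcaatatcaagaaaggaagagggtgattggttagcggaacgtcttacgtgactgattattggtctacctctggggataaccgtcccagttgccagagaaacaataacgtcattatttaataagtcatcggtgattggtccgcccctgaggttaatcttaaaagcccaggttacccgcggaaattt
LAPTM5: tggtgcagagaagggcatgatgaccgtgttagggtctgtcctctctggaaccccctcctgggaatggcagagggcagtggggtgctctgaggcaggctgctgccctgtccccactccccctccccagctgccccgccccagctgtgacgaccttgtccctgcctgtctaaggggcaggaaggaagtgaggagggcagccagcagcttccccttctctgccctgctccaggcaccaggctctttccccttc
Among members with a window, CACGTG was present in 5 of the 12 that rose in shco4 against shco2, in 1 of the 3 that fell and in 4 of the 16 that were not called. A match describes the letters in this window and is not evidence of binding.

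The proteases held the widest differences between the hairpins. Of 14 measured, 7 rose and 1 fell in shco4 against shco2 (median log2 difference 0.50), 4 rose and 1 fell in shco4 against scramble (0.18), and 0 rose and 4 fell in shco2 against scramble (-0.45). The background for this and the other counts by role is the share of bright genes called, given above for each comparison. CTSD, the main aspartic protease of the lysosome, had intensities of 8649, 6706 and 4905 on the shco4 arrays, 2035, 1890 and 1487 on the shco2 arrays and 4903, 3247 and 3497 on the scramble arrays. Every shco4 array stood above every scramble array and every scramble array above every shco2 array, the first by a narrow margin. The fold difference was 3.68 in shco4 against shco2 (log2 1.88 ± 0.26 SE, limma adjusted p = 0.0021). Against scramble CTSD fell by 1.09 on the log2 scale in shco2 (adjusted p = 0.0274), a call that was lost when any of 5 arrays was left out (scramble replicates 1 and 3 and each shco2 replicate, adjusted p up to 0.0871), and it differed by 0.78 in shco4 (adjusted p = 0.0853, or 0.022 with the replicate number as a block).

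CTSO, a papain-type cysteine protease, had 1080, 719 and 643 units with shco4, 96.5, 153 and 91.5 with shco2, and 168, 203 and 181 with scramble. The shco4 arrays stood far above all others. CTSO rose by 2.11 on the log2 scale in shco4 against scramble (4.33-fold, SE 0.26, limma adjusted p = 0.0033) and by 2.84 against shco2 (7.17-fold, adjusted p = 0.000483), while shco2 differed from scramble by -0.73 (adjusted p = 0.11). TPP1, which cuts tripeptides from protein ends and is lost in a form of neuronal ceroid lipofuscinosis, had 2809, 1937 and 2187 units with shco4, 771, 959 and 867 with shco2, and 1438, 1399 and 1530 with scramble. No group overlapped another. TPP1 moved in opposite directions with the hairpins: it rose by 0.65 ± 0.15 in shco4 (limma adjusted p = 0.0255) and fell by 0.75 ± 0.15 in shco2 (adjusted p = 0.0134). The shco4 call was lost without scramble replicate 1, 2 or 3 or shco4 replicate 3 (adjusted p up to 0.0821) and with the replicate block (0.0615), and the difference between the hairpins was 1.40 ± 0.15 (adjusted p = 0.000736). Of the other 3 TPP1 probe sets 1 fell in shco2 and the others ranged up to 0.048 there, and 2 rose in shco4.

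CTSB, the abundant cysteine cathepsin with both endo- and carboxypeptidase activity, had 4125, 3324 and 4273 units with shco4, 2258, 2597 and 2347 with shco2, and 3828, 3270 and 3514 with scramble. The shco2 arrays were low and the other lines overlapped. CTSB fell by 0.56 ± 0.11 in shco2 against scramble (limma adjusted p = 0.0158), and its other 3 probe sets fell there too, though the call was lost without scramble replicate 1 (0.0531), shco2 replicate 1 (0.0558) or shco2 replicate 3 (0.0553). Shco4 differed from scramble by 0.14 (adjusted p = 0.492) and rose by 0.70 ± 0.11 against shco2 (adjusted p = 0.00418). CTSH, an aminopeptidase, had 1214, 1025 and 839 units with shco4, 482, 569 and 522 with shco2, and 727, 655 and 727 with scramble. CTSK, a collagen-degrading cathepsin best known from osteoclasts, had 161, 158 and 223 units with shco4, 64.3, 73.6 and 89.6 with shco2, and 86.1, 106 and 124 with scramble. Both were highest on all shco4 arrays. Against shco2 they rose by 0.95 ± 0.14 (CTSH, limma adjusted p = 0.00258) and 1.25 ± 0.20 (CTSK, 0.00436). Against scramble CTSH rose by 0.53 (0.0412, or 0.0756 with the replicate block) and CTSK by 0.78 (0.0435). These calls were lost on leaving out any array but shco4 replicate 3 for CTSH (adjusted p up to 0.126) and any array at all for CTSK (up to 0.118).

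Other cathepsins ran the other way or fell with 1 hairpin. CTSL, an endopeptidase of the same family, had 1298, 1078 and 909 units with shco4, 2069, 1954 and 1951 with shco2, and 1553, 1429 and 1587 with scramble. Its order was the reverse of that of CTSD, with no overlap between groups. CTSL fell by 0.88 ± 0.12 in shco4 against shco2 (limma adjusted p = 0.00234) and by 0.49 ± 0.12 against scramble (0.0378, lost on leaving out any array but shco4 replicate 1, up to 0.104), and differed by 0.39 in shco2 (0.076). CTSS, a cathepsin known mostly from antigen-presenting cells, had 197, 133 and 139 units with shco4, 115, 131 and 102 with shco2, and 279, 235 and 194 with scramble. All shco2 arrays were under all others, and shco4 overlapped scramble. It fell by 1.01 ± 0.20 in shco2 (adjusted p = 0.0148, or 0.0535 without shco2 replicate 3) and differed by -0.60 in shco4 (0.0926). The other CTSS probe set was not called in shco2 against scramble (-0.48). CTSA, a carboxypeptidase that also protects lysosomal sialidase, rose by 0.42 in shco4 against shco2 (adjusted p = 0.00998) and was called with neither hairpin against scramble. CTSC, CTSF, CTSV, CTSZ and LGMN were not called in any of the 3 comparisons.

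CTSZ, chosen for mention after its values were seen, had 1432, 230 and 174 units with shco4, 609, 692 and 845 with shco2, and 884, 627 and 825 with scramble. Its shco4 replicate 1 lay above every other array and the other shco4 arrays below every other one, so its SD of 1.65 in shco4 was the widest of any member in any line. Without shco4 replicate 1, CTSZ fell by 1.94 against scramble (limma adjusted p = 0.00641) and by 1.82 against shco2 (0.00343). This omission was singled out after the values were seen, and CTSZ was not called in these comparisons in the other 8 omissions. The other CTSZ probe set was not called either, with 0.15 in shco4 against scramble and -0.52 against shco2. A fall of CTSZ in shco4 is therefore not established. Shco4 replicate 1 was the highest of its line for 22 of 44 members (50%, with 36.4% of bright genes), shco2 replicate 2 for 23 (52.3%, with 31.1%) and scramble replicate 1 for 22 (50%, with 33.5%). Leaving out shco4 replicate 1 gave 27 called members in shco4 against shco2, 20 up and 7 down, and 16 in shco4 against scramble, 9 up and 7 down.

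**Figure D2:**
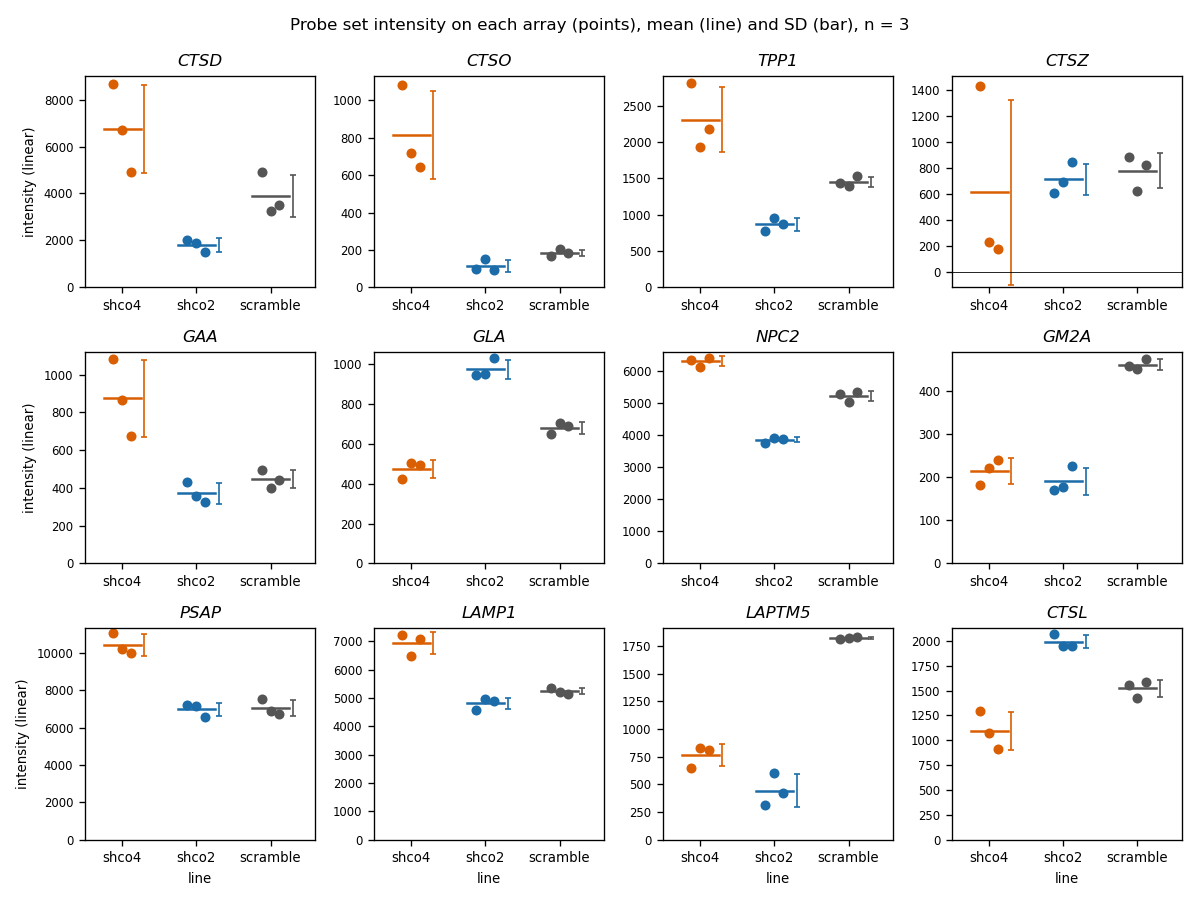
Linear probe set intensity of 12 members on each array (points), by line, with the group mean as a line and 1 SD as a bar beside it (n = 3). CTSO stands out in shco4, LAPTM5 and GM2A are low in both hairpin lines, GLA and CTSL run opposite to CTSD, and CTSZ in shco4 is split between 1 high array at 1432 and the others at 230 and 174.

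Among the 8 measured glycosidases and related enzymes of glycan breakdown, 4 rose and 1 fell in shco4 against shco2, 3 rose and 1 fell in shco4 against scramble, and 2 rose and 1 fell in shco2 against scramble. GAA, which frees glucose from lysosomal glycogen and is lost in Pompe disease, had 1081, 866 and 676 units with shco4, 433, 358 and 325 with shco2, and 495, 398 and 444 with scramble. All shco4 arrays were above all others. GAA rose by 0.95 ± 0.19 against scramble (1.93-fold, limma adjusted p = 0.0184) and by 1.22 ± 0.19 against shco2 (2.32-fold, 0.00391). The call against scramble was lost without scramble replicate 2 (0.0642), scramble replicate 3 (0.0537) or shco4 replicate 2 (0.053).

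GLA, the alpha-galactosidase lost in Fabry disease, went the opposite way with 421, 504 and 490 units with shco4, 940, 947 and 1027 with shco2, and 646, 701 and 686 with scramble. The 3 groups were fully apart. GLA fell by 0.53 ± 0.08 in shco4 against scramble (limma adjusted p = 0.00539) and rose by 0.52 ± 0.08 in shco2 (0.00493), and the hairpins differed by -1.04 ± 0.08 (2.06-fold, 0.000202). NEU1, the lysosomal sialidase, had 1421, 1492 and 1247 units with shco4, 1308, 1459 and 1259 with shco2, and 882, 762 and 858 with scramble. Both hairpin lines overlapped each other and stood above scramble. NEU1 rose by 0.73 ± 0.09 in shco4 (limma adjusted p = 0.00356) and by 0.69 ± 0.09 in shco2 (0.00383), with a difference between hairpins of 0.05 (95% interval -0.18 to 0.27).

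HEXA, the alpha subunit of beta-hexosaminidase, had 1439, 1541 and 976 units with shco4, 649, 614 and 585 with shco2, and 928, 778 and 719 with scramble. It rose by 1.07 ± 0.18 in shco4 against shco2 (limma adjusted p = 0.0054) and by 0.69 against scramble (0.0465), the second of which was lost on leaving out any array but shco4 replicate 3 (up to 0.132). The other HEXA probe set, a dim one, was not called and differed by -0.18 from scramble in shco4, the opposite direction. NAGLU, which acts on heparan sulfate, had 554, 497 and 398 units with shco4, 259, 323 and 230 with shco2, and 361, 299 and 293 with scramble. It rose by 0.84 ± 0.17 against shco2 (0.0113) and differed by 0.60 from scramble (0.0591, or 0.039 with the replicate block). Shco4 arrays were the highest for both genes. IDS, a sulfatase of the same pathway, had 626, 805 and 671 units with shco4, 447, 495 and 522 with shco2, and 649, 836 and 750 with scramble, low in shco2 alone on this probe set. IDS fell by 0.61 ± 0.13 in shco2 against scramble (limma adjusted p = 0.0194) and rose by 0.52 in shco4 against shco2 (0.0235). The first call did not hold when scramble replicate 2 or 3, or shco2 replicate 1 or 2, was omitted (at most 0.0646), and of the other 8 IDS probe sets 3 fell there and the rest were not called (-1.44 to 0.26 over the 8). The second call was lost without shco2 replicate 1 or 2 or shco4 replicate 2 or 3 (up to 0.0765). GUSB and MAN2B1, a beta-glucuronidase and an alpha-mannosidase, were not called in any comparison.

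The 8 genes of lipid breakdown and transfer showed no common direction: 2 rose and 1 fell in shco4 against shco2, 3 rose and 2 fell in shco4 against scramble, and 2 rose and 2 fell in shco2 against scramble. GM2A, the activator that presents ganglioside GM2 to beta-hexosaminidase, had 182, 221 and 240 units with shco4, 169, 177 and 227 with shco2, and 459, 451 and 474 with scramble. All 6 hairpin arrays were below all 3 scramble arrays. GM2A fell by 1.11 ± 0.14 in shco4 (2.16-fold, limma adjusted p = 0.0033) and by 1.28 ± 0.14 in shco2 (2.43-fold, 0.00177), and the hairpins differed by 0.17 (95% interval -0.16 to 0.50). Of the other 5 GM2A probe sets 2 fell in shco4 (-1.20 to 0.15 over the 5) and 3 fell in shco2 (-1.32 to 0.036), and the rest were not called. PSAP, the precursor of the saposins, was among the bright genes, with 11097, 10223 and 10006 units with shco4, 7230, 7170 and 6597 with shco2, and 7513, 6907 and 6712 with scramble. It was high in shco4 only, where it rose by 0.57 ± 0.06 against scramble (1.48-fold, limma adjusted p = 0.00215) and by 0.58 against shco2 (0.000847).

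NPC2, the soluble carrier that hands cholesterol to NPC1, had 6347, 6123 and 6418 units with shco4, 3761, 3905 and 3887 with shco2, and 5280, 5040 and 5329 with scramble. The groups were apart and tight. NPC2 rose by 0.27 ± 0.03 in shco4 (limma adjusted p = 0.00206, or 0.07 with no floor on low intensities) and fell by 0.44 ± 0.03 in shco2 (0.000393), with a hairpin difference of 0.71 (1.63-fold, 4.26e-05). ASAH1, acid ceramidase, had 765, 689 and 781 units with shco4, 1153, 1656 and 1333 with shco2, and 1080, 1259 and 1428 with scramble. It was low in shco4, by 0.75 ± 0.16 below scramble (adjusted p = 0.02, lost without scramble replicate 2 or 3 or shco4 replicate 1 or 2, up to 0.0641) and by 0.88 ± 0.16 below shco2 (0.00615). None of the other 3 ASAH1 probe sets was called in shco4 against scramble, and their directions differed (-0.90 to 0.25). Of these 3, 1 fell in shco4 against shco2.

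SMPD1, acid sphingomyelinase, had 870, 712 and 616 units with shco4, 916, 1011 and 812 with shco2, and 544, 512 and 495 with scramble. All 6 hairpin arrays were above scramble, and SMPD1 rose by 0.82 ± 0.14 in shco2 (limma adjusted p = 0.0082) and differed by 0.49 in shco4 (0.0537, or 0.034 with the replicate block). None of the other 3 SMPD1 probe sets was called in shco2 (-0.56 to 0.54), so the direction depends on the probe set. PPT1, which removes palmitate from proteins, had 3045, 3046 and 3433 units with shco4, 3303, 3762 and 3307 with shco2, and 2217, 2583 and 2401 with scramble. PPT1 too was higher on all 6 hairpin arrays. It rose by 0.40 ± 0.08 in shco4 (limma adjusted p = 0.0191, lost without scramble replicate 1, 0.0563, or 3, 0.0546) and by 0.53 ± 0.08 in shco2 (0.00645). LIPA, the acid lipase, and NPC1, the membrane cholesterol exporter, were not called.

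Of the 9 membrane proteins measured, 5 rose and 0 fell in shco4 against shco2, 4 rose and 1 fell in shco4 against scramble, and 0 rose and 3 fell in shco2 against scramble. LAMP1, a heavily glycosylated protein that lines the lysosomal membrane, had 7240, 6495 and 7073 units with shco4, 4597, 4951 and 4904 with shco2, and 5359, 5199 and 5161 with scramble. LAMP2, its close relative with a part in autophagy, had 5634, 4581 and 4808 units with shco4, 2421, 2892 and 2724 with shco2, and 3580, 2608 and 3604 with scramble. For both, all shco4 arrays were above all others. LAMP1 rose by 0.40 ± 0.05 against scramble (limma adjusted p = 0.00282) and by 0.53 ± 0.05 against shco2 (0.000457). Of the other 3 LAMP1 probe sets 1 rose in each of these comparisons (0.069 to 0.39 and 0.23 to 0.55 over the 3). LAMP2 rose by 0.63 ± 0.15 against scramble (0.0329, or 0.0579 with the replicate block) and by 0.90 ± 0.15 against shco2 (0.00489). The LAMP2 call against scramble was lost on leaving out any array but scramble replicate 3 and shco2 replicate 1 (up to 0.0942). Neither of the other 2 LAMP2 probe sets was called there (0.36 and 0.50), and both rose against shco2. In shco2 against scramble LAMP1 differed by -0.12 (adjusted p = 0.137) and LAMP2 by -0.27 (0.297), and 1 other probe set of each gene fell.

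LAPTM5, a membrane protein best known from blood cells, showed the widest fall of the list against scramble. It had 647, 826 and 809 units with shco4, 313, 600 and 418 with shco2, and 1814, 1824 and 1831 with scramble. Every hairpin array was under every scramble array. LAPTM5 fell by 1.27 ± 0.23 in shco4 (2.41-fold, limma adjusted p = 0.012) and by 2.09 ± 0.23 in shco2 (4.26-fold, 0.00186), and its other probe set fell by 2.00 and 2.57. The hairpins differed by 0.82 (0.0358), a call that was lost on leaving out any array but shco2 replicate 2 and shco4 replicate 1 (up to 0.104). The 10 leukocyte and macrophage markers summed to 309 to 519 units on shco4 arrays, 244 to 293 on shco2 arrays and 276 to 417 on scramble arrays. Of these 10, 9 averaged under 64 units in shco4, 10 in shco2 and 9 in scramble, PTPRC among them in each, with CD14 over 64 in shco4 and CSF1R over 64 in scramble.

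SCARB2, the receptor that carries glucocerebrosidase to lysosomes, had 503, 587 and 456 units with shco4, 332, 378 and 346 with shco2, and 550, 621 and 528 with scramble. It was low in shco2 alone, where it fell by 0.68 ± 0.11 against scramble (limma adjusted p = 0.00659), and it rose by 0.54 in shco4 against shco2 (0.00987). Neither of the other 2 SCARB2 probe sets was called in those comparisons (-0.19 and 0.16 in shco2 against scramble), and 1 of them rose by 0.43 in shco4 against scramble. CD63, a tetraspanin of late endosomes and exosomes, rose by 0.31 in shco4 against scramble (limma adjusted p = 0.0054, or 0.0574 with no floor on low intensities). LAPTM4A rose by 0.36 in shco4 against scramble (0.0178, lost without scramble replicate 1 or 2 or shco4 replicate 1 or 2, up to 0.0624). CLN3, a membrane protein lost in juvenile neuronal ceroid lipofuscinosis, fell by 0.48 in shco2 (0.0152, lost on omission of scramble replicate 1 or 2, or of shco2 replicate 2 or 3, with at most 0.0531) and differed by -0.31 in shco4 (0.071, or 0.037 with the replicate block). The other CLN3 probe set was not called in shco2 against scramble (-0.63). The calcium channel MCOLN1 and LAPTM4B were not called in any comparison.

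**Figure D3:**
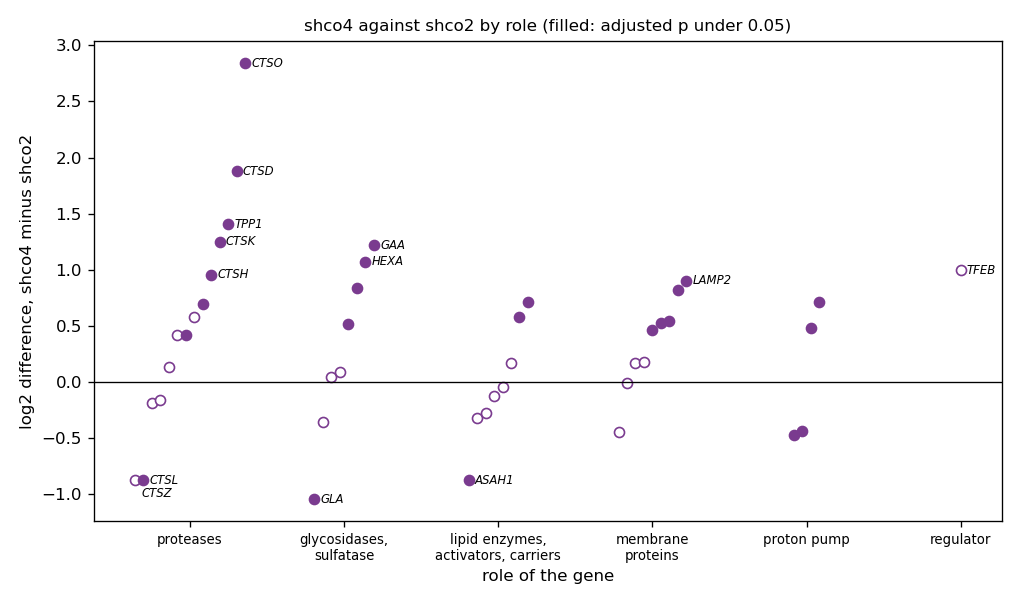
Log2 difference between shco4 and shco2 for each measured member, 1 point per gene in columns by role, filled where the adjusted p was under 0.05. Proteases and membrane proteins lie mostly above 0 (medians 0.50 and 0.46), and lipid enzymes and pump subunits are spread on both sides (medians -0.08 and 0.02).

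The 4 subunits of the proton pump on the list were split. ATP6AP1, an accessory subunit, had 3725, 3421 and 2830 units with shco4, 2241, 2129 and 1718 with shco2, and 2358, 2223 and 1882 with scramble. It was high in shco4, where it rose by 0.62 ± 0.15 against scramble (limma adjusted p = 0.033) and by 0.71 against shco2 (0.0122). The call against scramble was lost without any 1 of the scramble arrays, shco2 replicate 2 or shco4 replicate 1 or 2 (up to 0.0948). ATP6V1A, the catalytic subunit, fell by 0.40 ± 0.06 in shco2 against scramble (limma adjusted p = 0.00673) and rose by 0.48 in shco4 against shco2 (0.00189). The other ATP6V1A probe set was called in neither comparison (-0.30 and 0.16). ATP6V0D1 and ATP6V1H went the other way: in shco2 against scramble they rose by 0.48 ± 0.06 (0.00304) and 0.30 ± 0.04 (0.00367, or 0.0523 with no floor), and in shco4 against shco2 they fell by 0.44 (0.00222) and 0.47 (0.000378). ATP6V1H also fell by 0.17 in shco4 against scramble (0.033), a call lost on leaving out any array but scramble replicate 3 (up to 0.104) and with the array medians set equal (0.178).

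TFEB, the transcription factor of the list, had 373, 179 and 188 units with shco4, 104, 121 and 126 with shco2, and 199, 102 and 184 with scramble. Shco4 and scramble overlapped, and shco4 replicate 1 was the highest array. TFEB was not called in any comparison: the log2 differences were 0.99 in shco4 against shco2 (limma adjusted p = 0.0886), 0.58 in shco4 against scramble (0.36) and -0.41 in shco2 against scramble (0.548). Its relatives were called in shco2. TFE3 averaged 1393 units in shco4, 1854 in shco2 and 1270 in scramble and rose by 0.55 in shco2 against scramble (0.0151), a call lost without scramble replicate 2 or shco2 replicate 3 (at most 0.0539). MITF averaged 229 units in shco4, 404 in shco2 and 255 in scramble, rose by 0.66 in shco2 against scramble (0.00635) and fell by 0.83 in shco4 against shco2 (0.00152). The Rag GTPases, which bring mTORC1 to the lysosome, moved in opposite directions in shco4 against shco2: RRAGD fell by 1.31 (0.00758), and RRAGA rose by 0.64 (0.000497). LAMTOR3, part of the scaffold, rose with each hairpin, by 0.51 in shco4 (0.00116) and 0.43 in shco2 (0.00167). Among the 11 measured genes of these factors and the mTORC1 scaffold, 2 rose and 3 fell in shco4 against shco2, 1 rose and 0 fell in shco4 against scramble, and 4 rose and 1 fell in shco2 against scramble.

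Counted by both hairpins, 2 members rose with each (NEU1 and PPT1), 2 fell with each (GM2A and LAPTM5), and 4 were called in opposite directions. TPP1 and NPC2 rose in shco4 and fell in shco2, and GLA and ATP6V1H did the reverse. For 11 members the call was a rise in shco4 alone, and for 7 a fall in shco2 alone. CTSL and ASAH1 fell in shco4 alone, SMPD1 and ATP6V0D1 rose in shco2 alone, and 14 members were called with neither hairpin. Over all probe sets 2.35% rose with each hairpin, 2.24% fell with each, 1.53% rose in shco4 and fell in shco2, and 1.81% did the reverse. In shco4 alone 5.17% rose and 5.71% fell, in shco2 alone 6.55% rose and 6.18% fell, and 68.5% were called with neither. These shares take in dim probe sets, which the members did not include. A call with 1 hairpin alone does not show that the hairpins differ: CD63 differed between them by 0.46 (limma adjusted p = 0.000576), and LAPTM4A by 0.18 (0.121).

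**Figure D4:**
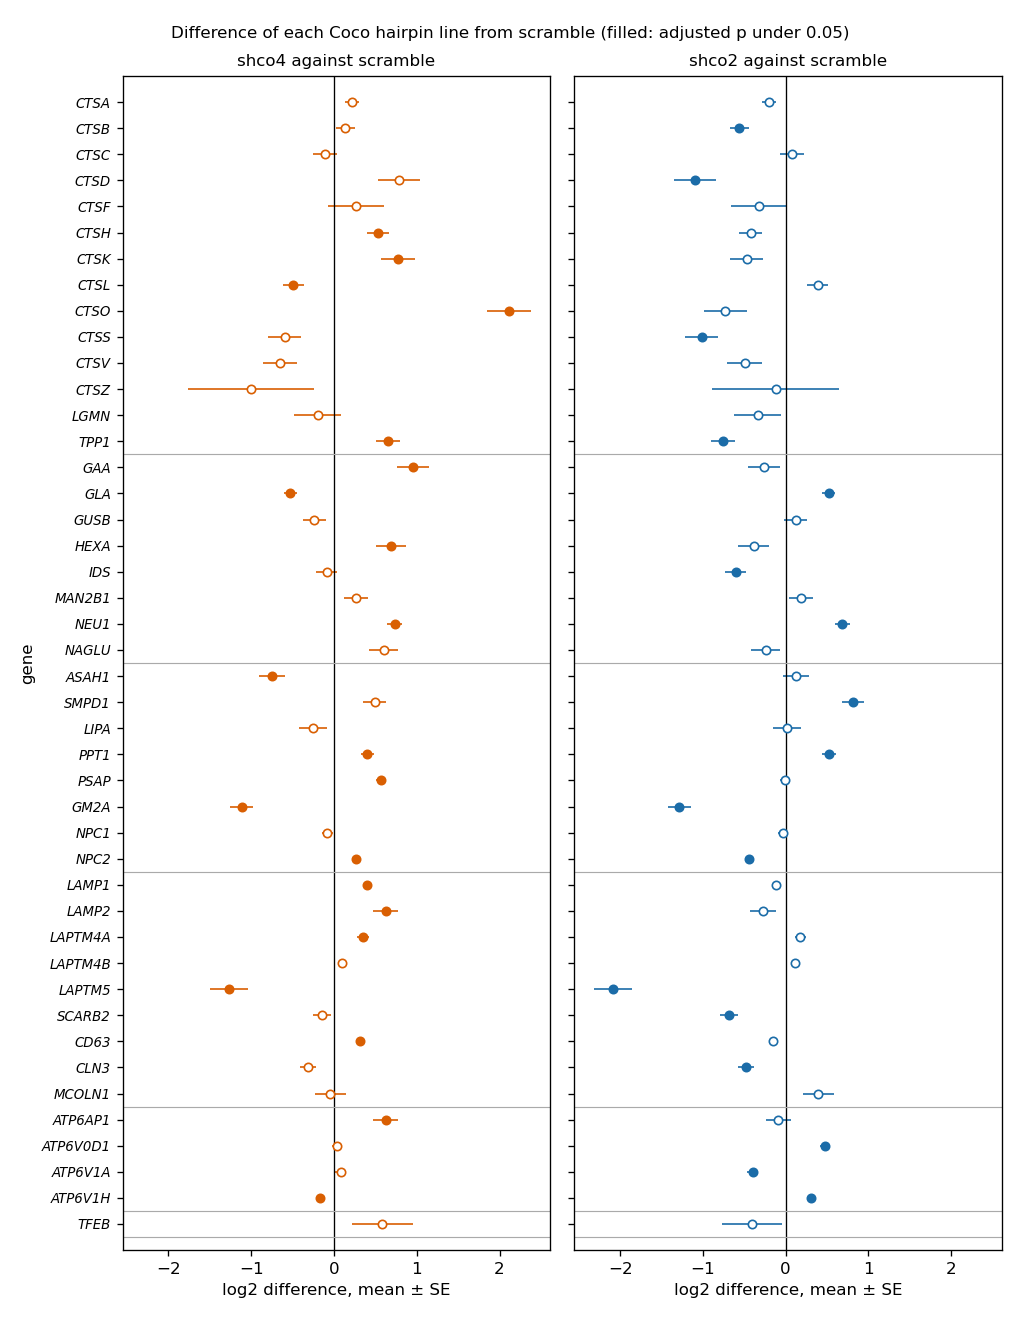
Log2 difference from scramble for each measured member (rows, grouped by role), with shco4 in the left panel and shco2 in the right, as the fitted difference ± SE, filled where the adjusted p was under 0.05; both panels use the same 3 scramble arrays. LAPTM5 and GM2A lie low in both panels, NEU1 and PPT1 high in both, and CTSO stands at 2.11 in shco4 and -0.73 in shco2.

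Genes outside the list were read from further lists of 86 genes, of which 70 were measured. Beside genes of the lysosome these held cathepsin inhibitors, autophagy genes, and TFEB-type factors with the mTORC1 scaffold. In shco4 against shco2 25 rose and 20 fell, in shco4 against scramble 16 rose and 11 fell, and in shco2 against scramble 16 rose and 12 fell. Rises and falls were thus closer in number than among the 44 members, a set of different make-up, and the difference was not tested. The share called was 64.3% in shco4 against shco2, 38.6% in shco4 against scramble and 40% in shco2 against scramble. Among bright genes it was 51.3%, 32.6% and 35.8%, and among all probe sets 31%, 18.8% and 20.7%. These shares are the background for the counts of each further list below, whose genes were not all bright. Among 15 other hydrolases 4 rose and 3 fell in shco4 against shco2, 3 rose and 4 fell in shco4 against scramble, and 1 rose and 2 fell in shco2 against scramble. FUCA1, a fucosidase, averaged 4945 units in shco4, 1374 in shco2 and 1668 in scramble and rose by 1.82 in shco4 against shco2 (limma adjusted p = 0.00188) and by 1.53 against scramble (0.00735). In the other direction, ARSB, a sulfatase, averaged 16.3 units in shco4, 88.8 in shco2 and 60.1 in scramble and fell by 2.36 in shco4 against shco2 (0.000226) and by 1.78 against scramble (0.0016). GALNS, a sulfatase too, fell by 1.15 in shco4 (0.00109) and by 0.89 in shco2 (0.00213), and ACP2, an acid phosphatase, fell by 1.15 in shco4 against scramble (0.00117). SGSH, which acts on heparan sulfate, averaged 247 units in shco4, 918 in shco2 and 560 in scramble and fell by 1.18 in shco4 (0.00123) while it rose by 0.71 in shco2 (0.00579).

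Of 4 genes of mannose 6-phosphate sorting, 3 rose and 1 fell in shco4 against shco2, 2 rose and 0 fell in shco4 against scramble, and 1 rose and 2 fell in shco2 against scramble. M6PR, the smaller mannose 6-phosphate receptor, averaged 527 ± 72.4 units in shco4, 919 ± 26.7 in shco2 and 308 ± 20.7 in scramble (SD, n = 3) and rose by 0.77 in shco4 (limma adjusted p = 0.00376) and by 1.58 in shco2 (0.000338). IGF2R, the larger receptor, averaged 2237 ± 117 units in shco4, 1162 ± 69.8 in shco2 and 1810 ± 144 in scramble; it fell by 0.64 in shco2 (0.0022) and rose by 0.31 in shco4 (0.0324, or 0.0619 with the replicate block). The shco4 call did not hold when 1 of 5 arrays was omitted: scramble replicate 1 or 2, shco4 replicate 1 or 3, or shco2 replicate 3 (at most 0.0964). GNPTAB, which starts the mannose 6-phosphate tag, averaged 288 ± 45.6 units in shco4, 125 ± 9.01 in shco2 and 251 ± 24.2 in scramble and fell in shco2 against scramble (0.00343). Between the hairpins the receptors went opposite ways, with a log2 difference of -0.81 for M6PR (0.00137) and 0.94 for IGF2R (0.000263) in shco4 against shco2.

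Of 6 cathepsin inhibitors, 4 rose and 0 fell in shco4 against shco2, 1 rose and 0 fell in shco4 against scramble, and 0 rose and 3 fell in shco2 against scramble. The secreted cystatins CST1 and CST4 fell by 1.55 (limma adjusted p = 0.00865) and 1.38 (0.00362) in shco2, and CST3, cystatin C, rose by 1.04 in shco4 against shco2 (0.00376). CSTB rose by 0.37 in shco4 against scramble (0.0178), a call lost without scramble replicate 2 or 3 or shco4 replicate 1 (at most 0.0625). The lowest group mean of CST1, CST4 and CST3 was that of shco2. Of 13 autophagy genes, 6 rose and 5 fell in shco4 against shco2, 4 rose and 1 fell in shco4 against scramble, and 4 rose and 1 fell in shco2 against scramble. SQSTM1, the cargo adaptor p62, averaged 6200 ± 1150 units in shco4, 2774 ± 209 in shco2 and 3040 ± 377 in scramble (SD, n = 3) and rose by 1.02 in shco4 against scramble (0.00576). GABARAP was also called in that comparison, with a smaller p (0.00175). ATG7 was the gene that fell in shco2 against scramble, by 0.64 (0.0104). UVRAG (0.00304), WIPI1 (0.0219) and ATG12 (0.0238) were among the 4 that rose there. The calls of WIPI1 and ATG12 were each lost on omission of any of several single arrays (at most 0.077).

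Among 12 further pump subunits 4 rose and 3 fell in shco4 against shco2, 4 rose and 2 fell in shco4 against scramble, and 5 rose and 1 fell in shco2 against scramble. ATP6V0C, part of the membrane ring of the pump, rose with both hairpins, by 0.82 in shco4 (limma adjusted p = 0.000656) and 0.51 in shco2 (0.00243). ATP6V0A2, a membrane subunit that anchors the pump in endosomes and Golgi, fell by 0.90 in shco4 against scramble (0.0074) and by 1.54 against shco2 (0.000476). ATP6V1B2 was the gene that fell in shco2 against scramble, by 0.92 (0.00306), and ATP6V1G1 was among the 5 that rose there (0.00273). Of 9 further membrane proteins 2 rose and 5 fell in shco4 against shco2, 1 rose and 4 fell in shco4 against scramble, and 1 rose and 2 fell in shco2 against scramble. LAMP3 had the smallest p of this list: its 3 shco4 arrays lay below the floor of 16, against means of 46.9 units in shco2 and 28.0 in scramble, at least 2.92-fold lower than shco2 (limma adjusted p = 9.71e-05) and at least 1.74-fold lower than scramble (0.00219), and it rose by 0.75 in shco2 against scramble (0.0023). CD164, a sialomucin of endosomes and lysosomes, was the gene that rose in shco4 against scramble, by 0.84 (0.00936), and SIDT2 rose by 0.92 in shco4 against shco2 (0.00224).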

How the data were processed

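Intensity values for 22277 probe sets on 9 Affymetrix 3′ arrays, 1 column per sample, were taken as deposited by the authors on a linear scale, scaled to a common trimmed mean as tested on the values. How the probes were summarised is not stated in the labels or headers. Precision is set by the number of arrays, 3 per group.

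The 62 control probe sets were left out, intensities were floored at 16 and put on the log2 scale. Of the 22215 others, 2611 (11.8%) lay at that floor on all arrays. Platform annotation gave 1 symbol to 19064, several to 1043 and none to 2108. Group means were estimated jointly from the 9 arrays with limma 3.58.1 in R 4.3.3 (lmFit, eBayes), with two-sided tests, Benjamini-Hochberg adjustment over 22215 probe sets and calls at 0.05; the prior degrees of freedom were 0.53. In simulated data for shco2 against scramble, 66, 67 and 67 probe sets were changed by 0.5, 1 and 2 on the log2 scale. The model called 10, 36 and 65 of them (15.2%, 53.7% and 97%), and it made 11 false calls among 22015 unchanged probe sets. In the real data 4589 probe sets were called in that comparison, which makes the Benjamini-Hochberg cutoff less strict. The simulated rates therefore do not carry over to the real data. SE and SD of log2 values are from the fit and the arrays.

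Members and further lists were chosen with earlier results of these data known. By rule, values on every array are given for 26 members. These are the members called with a log2 difference of at least 0.5, and LAMP1, LAMP2, CTSB, CTSD, CTSL, TFEB and GAA. For further lists the rule was counts and up to 4 called genes with the smallest p per comparison. Only some of these genes are named, so genes with a smaller p than a named gene may be left out. Promoters were searched for CACGTG, alone or between GT and AC.

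Arrays of shco4 and scramble with the same replicate number deviated together (correlation 0.133 to 0.235, judged by correlation alone), so the fit with the replicate block is given where it changes a call in that comparison. Same-number arrays of shco2 and scramble (0.0571 to 0.29) and of shco4 and shco2 (0.0576 to 0.213) were positively correlated too, though with smaller lowest values. For these comparisons the fit with the block is given only as counts of members. Alternatives covered normalization, centring, floor, filter, block, arrays fitted, moderation, choice of probe set and leaving out each array.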

Additional observations from a re-analysis of the deposited data

Results flagged for a closer look

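For 4 members the calls went in opposite directions with the hairpins, and the difference between the hairpins was itself called (limma, Benjamini-Hochberg adjusted). Over all probe sets 1.53% rose in shco4 and fell in shco2, and 1.81% did the reverse. TPP1 rose in shco4 and fell in shco2, with a log2 difference of 1.40 in shco4 against shco2 (adjusted p = 0.000736). NPC2 moved the same way, with a difference of 0.71 (4.26e-05). GLA fell in shco4 and rose in shco2, with a difference of -1.04 (0.000202), and ATP6V1H did likewise, with -0.47 (0.000378). Each of these hairpin differences stayed called without any 1 array, with adjusted p up to 0.00442 for TPP1, 0.000443 for NPC2, 0.0014 for GLA and 0.00244 for ATP6V1H. With no floor on low intensities the rise of NPC2 in shco4 (0.07), the fall of ATP6V1H in shco4 (0.245) and its rise in shco2 (0.0523) were not called, and on the TPP1 probe set outside the _s_at type the difference of shco2 from scramble was 0.048. With the array medians set equal, the fall of ATP6V1H in shco4 was not called (0.178). That fall was also lost in 8 of 9 omissions, and the rise of TPP1 in shco4 was lost in 4 of 9.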

How the results depend on the processing

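With the replicate block the members called were 22 in shco4 against scramble, 27 in shco4 against shco2 and 20 in shco2 against scramble, against 21, 25 and 17 without it. In shco4 against scramble the member count was 12 with only the 2 groups compared, 10 of 30 measured without _s_at and _x_at probe sets (whose probes may match several transcripts), and 10 to 20 when 1 array was left out, with 2760 to 3938 probe sets called, the lowest without scramble replicate 2. In shco4 against shco2 the member counts were 14 of 30 without those probe sets and 23 to 27 with 1 array left out. In shco2 against scramble they were 13 to 20. With no floor they were 14 in shco4 against scramble, 25 in shco4 against shco2 and 16 in shco2 against scramble; ATP6V1H lost its call in shco2, and CTSH, CTSL, HEXA, NPC2, LAPTM4A, CD63 and ATP6V1H lost theirs in shco4, both against scramble. Averaging over probe sets, which tests 11963 genes in place of 22215 probe sets, gave 2751 calls in shco4 against scramble, 4242 in shco4 against shco2 and 2949 in shco2 against scramble. Without _s_at and _x_at probe sets, directions turned for HEXA (-0.18) and ASAH1 (0.25) in shco4 against scramble and for TPP1 (0.048) and SMPD1 (-0.56) in shco2 against scramble, all uncalled; the cause was not tested. For the 26 members named by the rule, 1373 values kept their call and direction or, where uncalled, moved by less than 1 SD. A further 114 lost the call, 37 gained it and 11 uncalled values moved by more. In 4 the direction turned with a call in either setting, and turns of uncalled values were not counted. Calls of shco4 against scramble near 0.05 depend on single arrays, and small changes are limited by 3 arrays per group.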
